A study of Mus musculus with 3 samples.

Results

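Metallothioneins and zinc transporters handle zinc in the intestinal epithelium, and 6 of their genes were followed here among the 13891 genes of the deposited table. The 6 genes were the metallothioneins Mt1 and Mt2, the zinc importers Slc39a4 and Slc39a5, and the exporters Slc30a1 and Slc30a10, and they were chosen by name. Single-cell RNA sequencing was carried out on small intestine cells of male ICR mice that were 3 weeks old at the start. The AOS 0 group received water by gavage and no busulfan, the B + A 0 group received a single injection of busulfan at 40 mg/kg and then water, and the B + A 10 group received the same busulfan injection and then alginate oligosaccharides (AOS) at 10 mg/kg. Gavage lasted 2 weeks. Groups follow the sample titles, which match the treatment labels, but the source label names the sample titled B + A 0 as AOS 10 and the sample titled B + A 10 as B + A 0, so every comparison of these libraries rests on the titles. Busulfan is an alkylating chemotherapeutic drug, and AOS are short sugar chains made from alginate of brown seaweed. Each group was 1 library in which the cells of 6 mice were combined, so no test between groups could be made, and every interval below is a 95% interval that covers counting error only.

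Zinc is taken up from food across the brush border of enterocytes by importers of the ZIP family (Slc39 genes), and it leaves the cytosol through exporters of the ZnT family (Slc30 genes). Metallothioneins are small cysteine-rich proteins that bind zinc and copper inside the cell. When free zinc is high, the sensor Mtf1 binds metal response elements in the DNA and turns on metallothionein genes and Slc30a1, which makes metallothionein mRNA a widely used readout of cellular zinc. Glucocorticoids and stress also turn these genes on. Paneth cells are known for the zinc in their secretory granules.

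Mt1 and Mt2 are neighbours on chromosome 8 of the mouse genome (GRCm38), both on the plus strand. Mt2 lies at chr8:94172664-94173568, and Mt1 starts 5513 bases after its end, at chr8:94179082-94180327. Slc39a4 lies at chr15:76612383-76617384 on the minus strand and Slc39a5 at chr10:128395931-128401229 on the minus strand. Slc30a1 at chr1:191906767-191913247 and Slc30a10 at chr1:185454848-185468762 are on the plus strand. No annotated gene overlapped a member on its own strand. Of the opposite-strand neighbours, only Ankrd52, which overlaps Slc39a5, was in the table, and whether the counting used strand is not given in the sources used here.

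Because the comparison of Mt2 with Mt1 turns on whether reads of these like genes can be told apart, their coding sequences are shown, each from 3 exons, with the 38 of 186 positions at which they differ in capitals. They were 79.6% identical, the longest stretch that both whole transcripts shared was 20 bases, and after the stop codon, where 3′ reads fall, it was 10 bases.
Mt1: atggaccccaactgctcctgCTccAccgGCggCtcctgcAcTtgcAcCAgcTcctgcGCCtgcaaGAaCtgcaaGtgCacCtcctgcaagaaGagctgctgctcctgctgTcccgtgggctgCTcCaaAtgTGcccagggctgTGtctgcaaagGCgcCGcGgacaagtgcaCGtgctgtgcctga
Mt2: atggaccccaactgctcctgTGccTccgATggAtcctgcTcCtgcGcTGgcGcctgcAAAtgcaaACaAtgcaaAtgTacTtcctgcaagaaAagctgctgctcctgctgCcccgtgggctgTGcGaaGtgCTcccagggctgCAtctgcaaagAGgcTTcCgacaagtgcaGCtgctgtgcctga

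The sequence before the start of 4 members is shown because metal response elements are the known zinc switch of metallothionein genes and Slc30a1. Slc30a10 is shown beside them for comparison. The search used the core letters TGCACNC and TGCGCNC on both strands, overlapping matches included, in RefSeq windows from 250 bases before to 50 bases after each start (GRCm38.p6). The stretches printed end before the first annotated transcript start, and capitals mark the cores.
Mt1, plus strand, chr8:94178839-94179081: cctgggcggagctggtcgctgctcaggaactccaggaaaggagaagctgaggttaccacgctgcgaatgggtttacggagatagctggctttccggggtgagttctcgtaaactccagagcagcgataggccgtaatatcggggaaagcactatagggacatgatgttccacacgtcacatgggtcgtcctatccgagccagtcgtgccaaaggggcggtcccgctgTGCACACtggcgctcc
Mt2, plus strand, chr8:94172368-94172617: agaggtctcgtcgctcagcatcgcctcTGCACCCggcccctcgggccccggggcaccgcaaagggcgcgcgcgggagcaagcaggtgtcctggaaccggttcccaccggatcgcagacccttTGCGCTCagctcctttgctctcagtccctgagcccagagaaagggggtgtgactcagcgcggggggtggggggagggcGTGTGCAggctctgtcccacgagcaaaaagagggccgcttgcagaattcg
Slc30a1, plus strand, chr1:191906531-191906766: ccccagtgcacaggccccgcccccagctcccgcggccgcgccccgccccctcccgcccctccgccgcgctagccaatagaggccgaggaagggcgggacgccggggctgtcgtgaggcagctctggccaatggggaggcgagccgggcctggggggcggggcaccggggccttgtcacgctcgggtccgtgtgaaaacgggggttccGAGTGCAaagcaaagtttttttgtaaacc
Slc30a10, plus strand, chr1:185454598-185454847: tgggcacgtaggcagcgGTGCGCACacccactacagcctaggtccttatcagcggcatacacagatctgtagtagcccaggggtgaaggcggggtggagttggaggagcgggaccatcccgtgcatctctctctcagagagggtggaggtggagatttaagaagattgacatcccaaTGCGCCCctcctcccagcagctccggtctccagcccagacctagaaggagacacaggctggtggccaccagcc

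The full 300-base windows held 3 cores at Mt1, 4 at Mt2, 2 at Slc30a1 and 3 at Slc30a10, of which 2 overlapped on opposite strands. Slc39a5 has 2 start sites in the table, with 0 and 1 core. Of 32851 windows of all genes, 25.7% held at least 1 core, 7.11% at least 2, 1.97% at least 3 and 0.517% at least 4. A match is a description of the letters, not a site shown to be used.

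The 3 libraries held 12653 cells. Median depth was 7371 UMIs (counted molecules) per cell for AOS 0, 6407 for B + A 0 and 3505 for B + A 10, and pairs of libraries shared 17 to 34 cell barcodes. The cells fell into 20 clusters, and 9 classes with 7952 cells were described, from 339 duodenal enterocyte-like to 1487 goblet-like cells. The classes were stem-like (markers Lgr5, Olfm4 and Ascl2), early enterocyte-like (Gsdmc2, Gsdmc3 and Gsdmc4), mid enterocyte-like (Ms4a18, Il18 and Plac8), duodenal enterocyte-like (S100g, Slc40a1 and Cybrd1), proximal enterocyte-like (Rbp2, Adh6a and Fabp1), mature enterocyte-like (Slc5a12, Enpp7 and Ms4a10), ileal enterocyte-like (Fabp6, Slc10a2 and Slc51a), goblet-like (Muc2, Fcgbp and Clca1) and Paneth-like (Lyz1, Defa24 and Defa17). The summed marker level was highest in the class it names in every library for all 9 lists, for example 51130 to 57875 UMIs per 1000000 for the ileal list in ileal enterocyte-like cells against at most 8892 elsewhere. The mid list separated its class least, at 17346 to 18656 UMIs per 1000000 against up to 18063 in proximal enterocyte-like cells. Clusters were named from these same lists, so a high level of a list in its own class follows in part from the naming. Markers of T lymphocytes and goblet cells in enterocytes differed between libraries, with the T lymphocyte list at 71.8 to 178 UMIs per 1000000 in the 6 enterocyte classes in AOS 0 and 245 to 480 in the other libraries. All 6 members also stand on marker lists that the study chose on these samples, so their differences between classes are a description.

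Mt1 was by far the most abundant member, and it was highest in the middle of the enterocyte series. Levels are UMIs per 1000000 UMIs of the class, and each molecule counts once whatever the length of its transcript. In mid enterocyte-like cells Mt1 was at 2203 for AOS 0, 2218 for B + A 0 and 2402 for B + A 10, above every value of every other class. In early enterocyte-like cells it was at 1715, 1542 and 1530.4 in the same order of libraries. In stem-like cells, at the base of the crypt, it was at 766, 888 and 999, and in mature enterocyte-like cells, near the villus tip, at 518, 730.3 and 519. The level in all cells of a class was 879 in stem-like, 1622 in early, 2270.0 in mid, 954 in proximal and 580 in mature enterocyte-like cells. Goblet-like and Paneth-like cells stood far below, with 124 to 131 and 156 to 244 UMIs per 1000000. In the order of levels, duodenal and early enterocyte-like cells overlapped in their library ranges, as did ileal, proximal and stem-like cells, and no other neighbours overlapped.

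Mt2 followed the same order of classes for the most part, at a lower level. In mid enterocyte-like cells it was at 627 UMIs per 1000000 for AOS 0, 431 for B + A 0 and 432 for B + A 10. In early enterocyte-like cells it was at 562, 373 and 312. In ileal enterocyte-like cells it was at 291, 196 and 110.2, and in duodenal enterocyte-like cells at 401, 349 and 118. The AOS 0 library was highest in all 4 of these classes. Neighbours in the order of Mt2 levels overlapped in their library ranges, except Paneth-like and goblet-like cells, which were lowest at 47.1 and 27.2 over all cells.

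**Figure D1:**
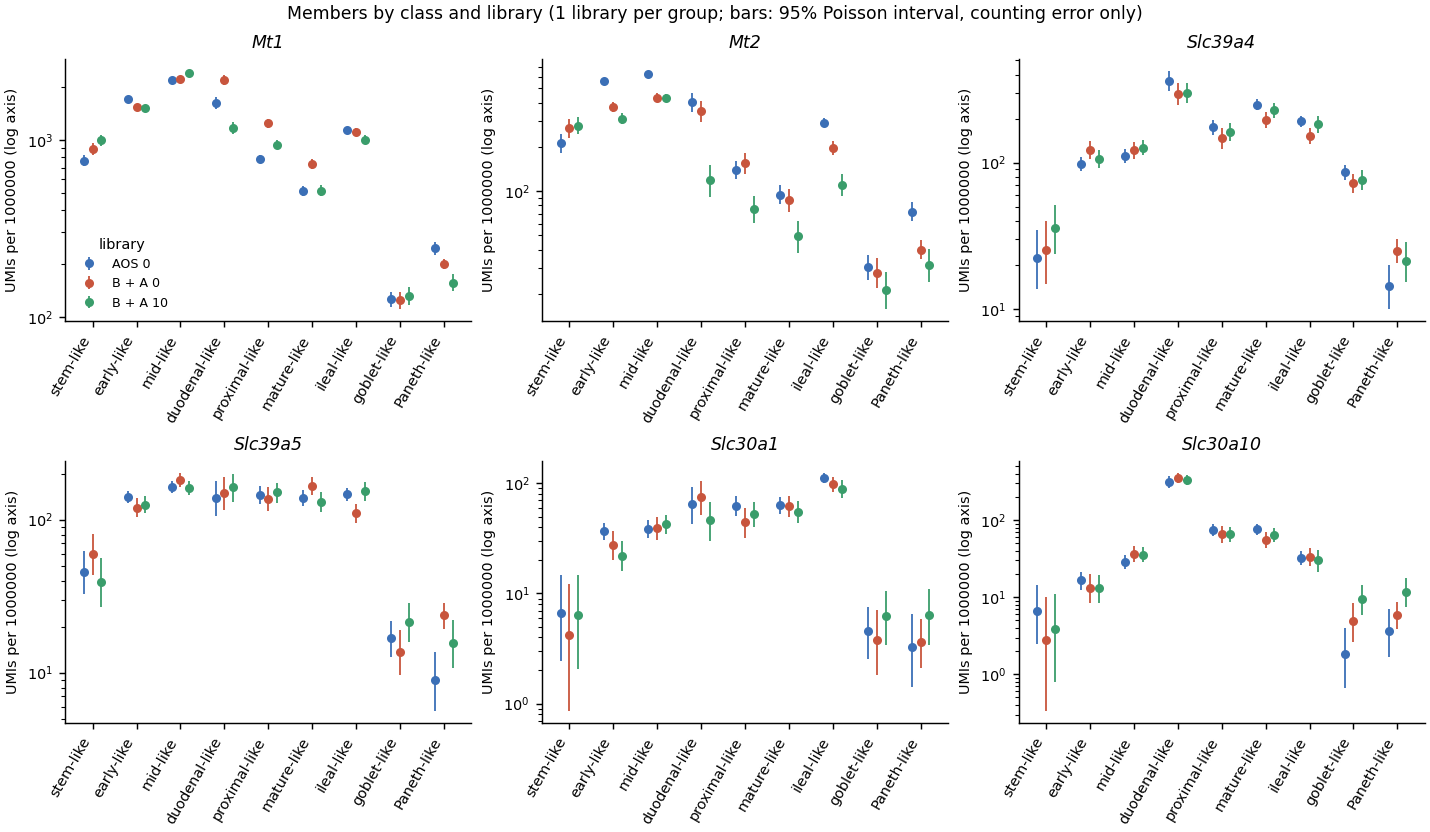
Level of each member (UMIs per 1000000, log axis) in 9 classes, 1 point per library, with 95% Poisson intervals for counting error only. Mt1 reached 2203 to 2402 in mid enterocyte-like cells, Slc30a10 stood out at 314 to 353 in duodenal enterocyte-like cells, and Slc30a1 was highest at 88.5 to 112 in ileal enterocyte-like cells.

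The importers were enterocyte genes with different profiles. Slc39a4 encodes the brush border zinc importer whose loss in people causes acrodermatitis enteropathica, an inherited zinc deficiency. It was highest in duodenal enterocyte-like cells, at 362 UMIs per 1000000 for AOS 0, 295 for B + A 0 and 301 for B + A 10. Mature enterocyte-like cells followed at 249.7, 196 and 228, and no library of any other class overlapped the range of the duodenal class. Mid and early enterocyte-like cells were at 112 to 127 and 98.1 to 122.

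Slc39a5, an importer known to sit on the basolateral side of enterocytes, was level across the 6 enterocyte classes. Its class levels over all cells ran only from 131 in early to 168 in mid enterocyte-like cells, and each class overlapped in its library range with the next. Stem-like cells were lower, at 45.7 for AOS 0, 60.01 for B + A 0 and 39.4 for B + A 10. Goblet-like cells were at 13.7 to 21.5 and Paneth-like cells at 9.02 to 23.7 UMIs per 1000000.

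The exporters were highest in different enterocyte classes. Slc30a1, which moves zinc from the cytosol to the blood side, was highest in ileal enterocyte-like cells, at 112 UMIs per 1000000 for AOS 0, 98.8 for B + A 0 and 88.5 for B + A 10, and no other class reached 88.5. Duodenal, mature and proximal enterocyte-like cells came next, at 60.7, 60.5 and 54.7 over all cells, with overlapping library ranges. Stem-like, goblet-like and Paneth-like cells were at 3.28 to 6.69 in each library. Slc30a10, better known as a manganese exporter, was at 314, 353 and 332 UMIs per 1000000 in duodenal enterocyte-like cells of the 3 libraries. Proximal and mature enterocyte-like cells followed at 65.6 to 74.8 and 55.4 to 76.6, and mid and ileal enterocyte-like cells at 28.6 to 36.3 and 30.3 to 33.1. Slc30a10 was also among the 10 leading genes of the duodenal cluster, although the zinc and copper genes were kept out of the clustering.

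Free RNA in the droplets adds UMIs to cells that do not make a gene, so each cell was thinned to 1000 UMIs and T lymphocyte-like cells served as the comparison type. These held much enterocyte mRNA themselves, with Fabp2 in AOS 0 at 5345 UMIs per 1000000 against 5191 in mid enterocyte-like and 2747 in goblet-like cells. A share below theirs is therefore read neither as expression nor as its absence. Of the T lymphocyte-like cells, 296 formed a cluster and 67 another. In AOS 0, then B + A 0, then B + A 10, Mt1 was at 670, 798 and 938 UMIs per 1000000 in the larger. It was at 244, 142 and 92.9 in the smaller, so the comparison share is that of a mix. Over all libraries, Mt1 was seen in 71.4% of mid, 60.1% of early and 54.0% of duodenal enterocyte-like cells, 53.5% of stem-like cells and 32.5% of T lymphocyte-like cells, at a median depth before thinning of 4778.5, 6223, 3879, 4348.5 and 4335 UMIs. Without thinning these shares were 92.0%, 93.5%, 77.0%, 91.5% and 60.9%. T lymphocytes can make metallothioneins themselves, and goblet-like cells, with a median depth of 5044 UMIs, had Mt1 in 10.9% of cells after thinning and 41.0% before. The Mt1 share of mature enterocyte-like (28.7%), goblet-like and Paneth-like (20.7%) cells was below that of T lymphocyte-like cells, as was the Mt2 share of proximal (7.23%) and mature (4.46%) enterocyte-like, goblet-like (2.22%) and Paneth-like (5.53%) cells against 10.2%.

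Slc39a4 was seen after thinning in 26.5% of duodenal, 18.3% of mature, 16.5% of ileal and 15.4% of proximal enterocyte-like cells against 6.61% of T lymphocyte-like cells. The values without thinning were 64.3%, 55.6%, 59.6%, 43.6% and 25.3%. Goblet-like cells were at 7.53%, Paneth-like cells at 2.30% and stem-like cells at 2.76%, close to or below the T lymphocyte-like share. Slc30a10 was seen in 27.7% of duodenal enterocyte-like cells against 1.65% of T lymphocyte-like cells (68.1% and 8.54% without thinning). Slc30a1 was seen in 10.6% of ileal enterocyte-like cells against 1.38% (44.0% and 6.34% without thinning). In Paneth-like cells it was seen in 0 of 434, with an interval up to 0.846% of cells with a UMI at this depth. Without thinning, at a median of 17323 UMIs, 7.37% of the Paneth-like cells held a Slc30a1 UMI. Slc39a5 was seen in 11.6% to 16.5% of the cells of the 6 enterocyte classes, 4.53% of stem-like cells and 4.68% of T lymphocyte-like cells.

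Within a class, metallothionein UMIs were unevenly spread over the cells. After thinning, a mid enterocyte-like cell held 2.73 UMIs of Mt1 and Mt2 together on average, and 26.4% of the cells held none. The 10% of cells with the most UMIs held 37.4% of them. In ileal enterocyte-like cells, 57.6% of the cells held none and the top 10% held 55.2%, with a variance to mean ratio of 5.25 for AOS 0, 3.29 for B + A 0 and 2.69 for B + A 10. In mature enterocyte-like cells 70.04% held none. Mt2 went with Mt1 in the same cells: in mid enterocyte-like cells, Mt2 was seen in 36.6% of the cells with an Mt1 UMI and in 7.53% of the others, and in ileal enterocyte-like cells in 23.9% and 3.14%.

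**Figure D2:**
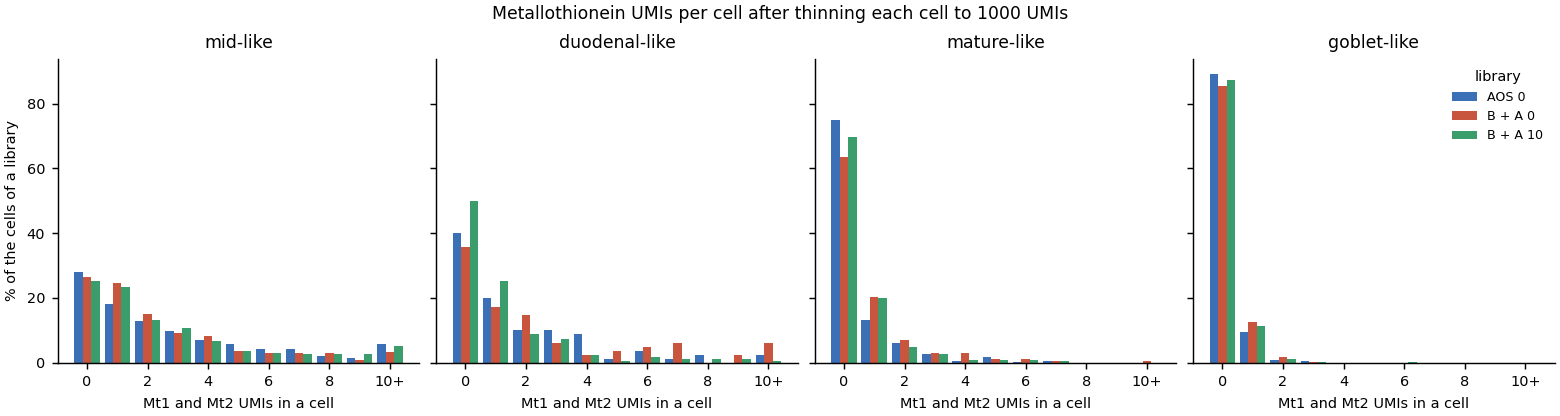
Share of the cells of each library (%) that held a given number of Mt1 and Mt2 UMIs after thinning each cell to 1000 UMIs. Mid, duodenal and mature enterocyte-like cells and goblet-like cells are shown. Over all libraries, 26.4% of mid enterocyte-like, 70.04% of mature enterocyte-like and 87.4% of goblet-like cells were at 0. Duodenal enterocyte-like cells were at 0 in 40%, 35.8% and 50.0% of the cells of AOS 0, then B + A 0, then B + A 10.

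To compare the libraries, a member in a class was called past the fold where the ratio was at least 1.5 or at most its inverse, the interval left out 1 and the class held at least 100 UMIs of the gene, which 46 of 54 member and class values did. For busulfan alone against the control (B + A 0 against AOS 0), 3 of the 46 were higher and 2 lower, and of all 38108 gene and class values 4.38% were higher and 3.12% lower. For AOS added to busulfan (B + A 10 against B + A 0), 0 were higher and 6 lower, beside 2.69% and 2.34% of all values. For B + A 10 against AOS 0, 0 were higher and 8 lower, beside 5.6% and 4.25%. These comparisons share libraries. The median log2 ratio of the 46 values was -0.10, -0.06 and -0.15, against -0.03, -0.001 and -0.02 over all values. Of the lower values, Mt2 made up 2 of 2, 4 of 6 and 6 of 8.

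**Figure D3:**
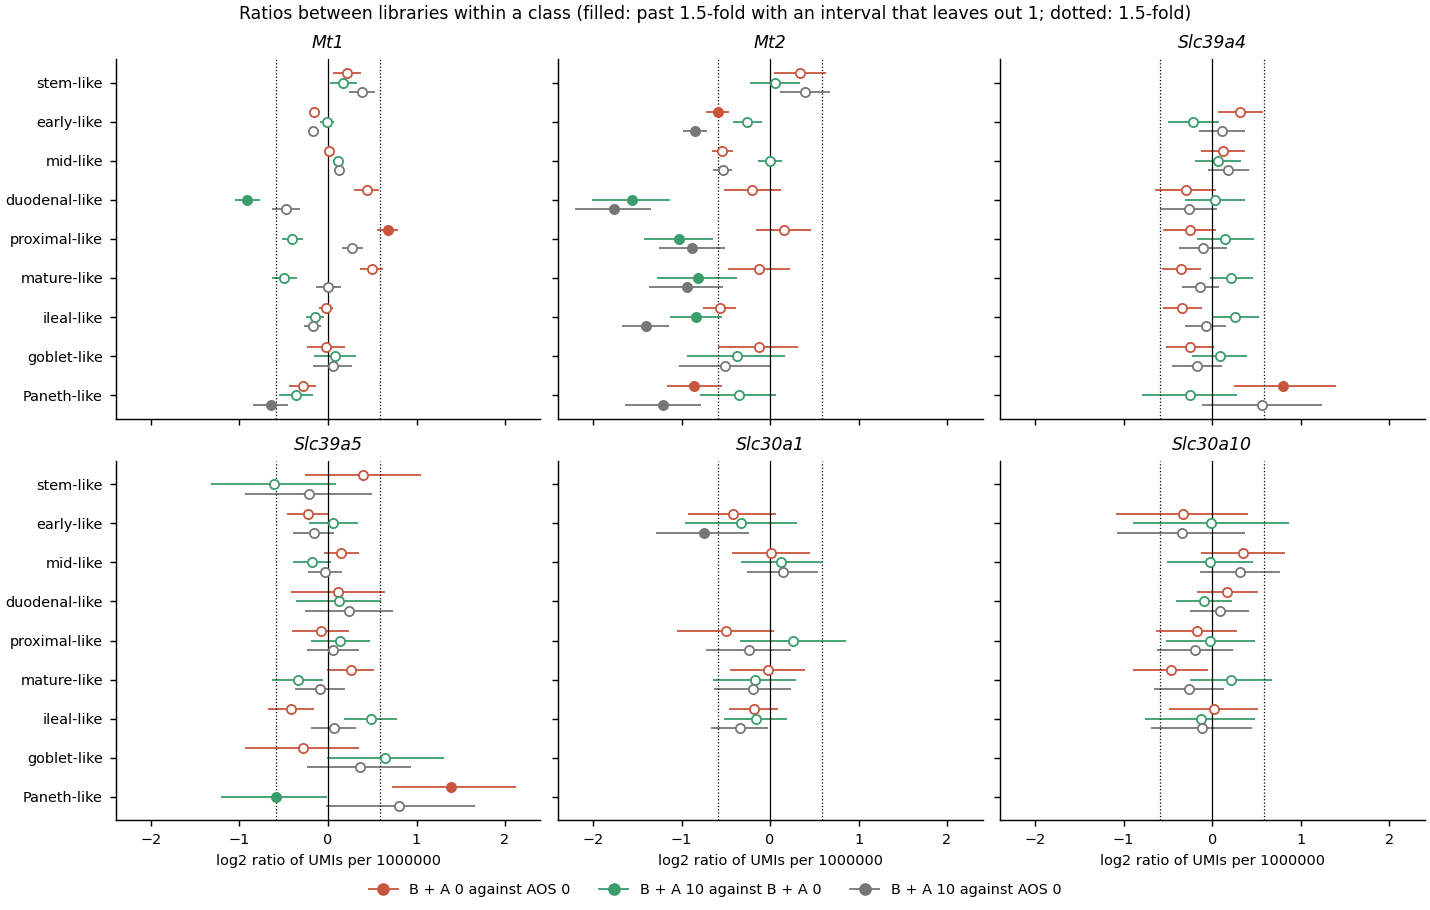
Log2 ratio of UMIs per 1000000 between libraries within a class, 1 panel per member, with 95% intervals for counting error. Filled points passed 1.5-fold (dotted lines) with an interval that left out 1, and the points farthest below 0 were those of Mt2 in duodenal and ileal enterocyte-like cells of B + A 10.

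Mt2 in duodenal enterocyte-like cells showed the lowest ratio. The 401, 349 and 118 UMIs per 1000000 in AOS 0, then B + A 0, then B + A 10 rested on 174, 154 and 64 UMIs from 80, 81 and 178 cells. B + A 10 stood alone below the other libraries, with a ratio of 0.339 to B + A 0 (0.249 to 0.456) and 0.295 to AOS 0 (0.218 to 0.394). After thinning each cell to 1000 UMIs the first of these was 0.199. Mt1 in the same class was at 1621, 2196 and 1169, with a ratio of 0.532 (0.481 to 0.589) for B + A 10 against B + A 0 and 1.35 (1.23 to 1.49) for B + A 0 against AOS 0. Of the transporters of this class, Slc39a4, Slc39a5 and Slc30a10 had ratios of 1.02 (0.806 to 1.30), 1.09 (0.781 to 1.52) and 0.940 (0.755 to 1.17) for B + A 10 against B + A 0, and Slc30a1, with only 86 UMIs in the 3 libraries, had a ratio of 0.617 (0.352 to 1.07).

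In ileal enterocyte-like cells Mt2 was ordered with AOS 0 above B + A 0 above B + A 10, with 792, 332 and 142 UMIs. The ratio of B + A 10 was 0.561 (0.458 to 0.685) to B + A 0 and 0.379 (0.315 to 0.453) to AOS 0. Mt1 in the same cells was at 1136, 1119 and 1008, with a ratio of 0.887 (0.831 to 0.947) for B + A 10 against AOS 0. Both ileal Mt2 ratios stayed past the fold in 9 of 9 alternative settings. After thinning, Mt2 was seen in 15.8%, 12.3% and 7.06% of ileal and in 17.5%, 28.4% and 7.30% of duodenal enterocyte-like cells, against 8.11%, 13.9% and 9.83% of T lymphocyte-like cells, so that only the AOS 0 share of the first class and the AOS 0 and B + A 0 shares of the second lay above this comparison type.

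In early enterocyte-like cells the Mt2 ratio was 0.663 (0.605 to 0.725) for B + A 0 against AOS 0 and 0.555 (0.505 to 0.608) for B + A 10 against AOS 0. The first of these held in 4 of 9 alternatives only and was 0.885 at a coarser clustering. Mid enterocyte-like cells had close values of 0.688 and 0.689, inside 1.5-fold. In proximal enterocyte-like cells Mt2 was at 139 for AOS 0, 155 for B + A 0 and 75.9 for B + A 10, a ratio of 0.489 (0.372 to 0.641) for B + A 10 against B + A 0, which was 0.299 after thinning. In mature enterocyte-like cells it was at 94.8, 86.9 and 49.4, a ratio of 0.568 (0.414 to 0.774) for B + A 10 against B + A 0, which was 0.795 after thinning. The ratio to AOS 0 was 0.520 (0.387 to 0.693), or 0.951 after thinning. The Mt2 shares of proximal and mature enterocyte-like cells lay below that of T lymphocyte-like cells, as given above. Stem-like cells went the other way, with Mt2 at 212, 268 and 279 and a ratio of 1.31 (1.08 to 1.60) for B + A 10 against AOS 0.

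By level, Mt1 was higher in B + A 0 in the proximal and mature enterocyte-like classes. In proximal enterocyte-like cells it was at 782 for AOS 0, 1247 for B + A 0 and 944 for B + A 10, and the ratio of B + A 0 to AOS 0 was 1.60 (1.47 to 1.73), or 1.42 with the zinc and copper genes left in the clustering. In mature enterocyte-like cells that ratio was 1.41 (1.29 to 1.54), and for B + A 10 against B + A 0 it was 0.710 (0.644 to 0.783). In mid enterocyte-like cells, where Mt1 was highest, the 3 ratios lay between 1.01 and 1.09.

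Since the Mt2 ratios lay below the Mt1 ratios in these classes, the part of all metallothionein UMIs that came from Mt2 was computed, a measure that does not depend on the total of the class. In ileal enterocyte-like cells it was 20.4% (19.1 to 21.7) for AOS 0, 14.9% (13.5 to 16.5) for B + A 0 and 9.85% (8.36 to 11.5) for B + A 10. In duodenal enterocyte-like cells it was 19.8% (17.2 to 22.6), 13.7% (11.8 to 15.9) and 9.18% (7.14 to 11.6). Early enterocyte-like cells were at 24.7%, 19.5% and 16.9%, and mid enterocyte-like cells at 22.2%, 16.3% and 15.2%. Proximal enterocyte-like cells were at 15.1%, 11.1% and 7.44%, and mature enterocyte-like cells at 15.5%, 10.6% and 8.69%. AOS 0 above B + A 0 above B + A 10 thus held in 6 of 6 enterocyte classes, and in 5 of 6 after thinning, where mature enterocyte-like cells were at 9.20%, 7.22% and 8.20%. This is an order of values. Median depth over all cells fell in the same order of libraries, at 7371, 6407 and 3505 UMIs per cell. Whether depth bears on the Mt2 part was not tested beyond this thinning. The intervals of B + A 0 and B + A 10 overlapped in early, mid and mature enterocyte-like cells, and those of AOS 0 and B + A 0 in no enterocyte class.

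Stem-like cells did not show that order in the reported setting. In them the Mt2 part was 21.7% (19.0 to 24.5), 23.2% (20.4 to 26.2) and 21.8% (19.3 to 24.5), with overlapping intervals. After thinning it was 18.6%, 27.9% and 22.6%. The order did appear in stem-like cells at a resolution of 1.5, at 22.7%, 21.9% and 19.9%. With the zinc and copper genes left in the clustering the values were 22.23%, 22.17% and 22.10%, also in that order but close together. T lymphocyte-like cells were at 16.0%, 17.6% and 16.1%, also overlapping. S phase crypt-like cells were at 18.5%, 20.8% and 19.0%. Mitotic crypt-like cells were in the order of the enterocytes, at 20.3% (19.4 to 21.3), 19.6% (18.4 to 21.0) and 17.7% (16.5 to 19.0), and the intervals of AOS 0 and B + A 10 did not overlap. Goblet-like cells were at 19.5%, 18.4% and 14.1%, with overlapping intervals, and Paneth-like cells at 22.9% (20.01 to 26.1), 16.7% (14.5 to 19.1) and 16.8% (13.2 to 20.9). After thinning, goblet-like cells were at 23.2%, 12.9% and 15.2%, and Paneth-like cells at 21.4%, 20.4% and 22.2%. Stem-like and T lymphocyte-like cells came from the same 3 libraries as the enterocytes, but whether the classes differ was not tested.

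**Figure D4:**
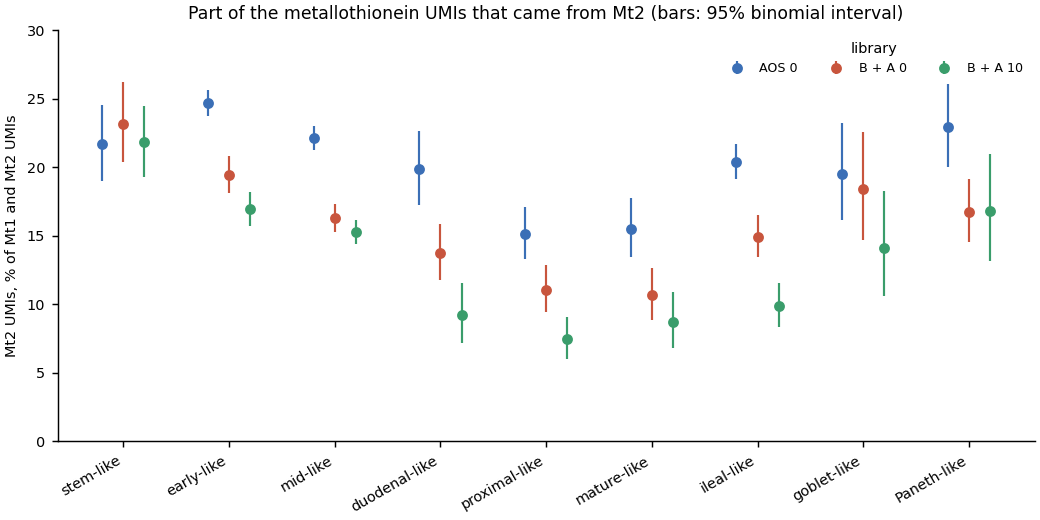
Mt2 UMIs as a share of Mt1 and Mt2 UMIs (%) by class and library, with 95% binomial intervals for counting error. In the 6 enterocyte classes AOS 0 was highest and B + A 10 lowest, for example 20.4% against 9.85% in ileal enterocyte-like cells, while stem-like cells were at 21.7% to 23.2%.

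The importers differed between libraries mainly in Paneth-like cells, where they were low. Slc39a4 was at 14.3 UMIs per 1000000 for AOS 0, 25.1 for B + A 0 and 21.1 for B + A 10, from 35, 110 and 43 UMIs, and Slc39a5 at 9.02, 23.7 and 15.7. The ratio of B + A 0 to AOS 0 was 1.75 (1.18 to 2.63) for Slc39a4 and 2.63 (1.65 to 4.37) for Slc39a5, and that of B + A 10 to B + A 0 was 0.664 (0.432 to 0.995) for Slc39a5. This last ratio held in 5 of 9 alternatives and was 0.772 with totals without ribosomal protein and defensin genes. Enterocyte mRNA in the same cells moved alike, with the proximal enterocyte list at 911, 2479 and 2063 UMIs per 1000000 and Fabp2, an abundant enterocyte gene, at 741, 2249.9 and 1499. Its part in the result was not tested. Both shares after thinning were below that of T lymphocyte-like cells, so they are not read as expression in Paneth cells.

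Paneth-like cells also had lower metallothionein levels in the busulfan libraries. Mt1 was at 244, 199.8 and 156 and Mt2 at 72.6, 40.1 and 31.5 UMIs per 1000000 in AOS 0, then B + A 0, then B + A 10. The Mt2 ratio was 0.553 (0.446 to 0.685) for B + A 0 and 0.434 (0.321 to 0.580) for B + A 10 against AOS 0, the second of which was 0.708 after thinning and held in 7 of 9 alternatives, and the Mt1 ratio of B + A 10 to AOS 0 was 0.639 (0.556 to 0.734). That Mt1 ratio was 0.880 with means of per-cell values and held in 5 of 9 alternatives. In this class 19.3% of all genes were higher in B + A 0 than in AOS 0 and the median log2 ratio of all genes was 0.25 in that comparison.

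Elsewhere no importer value was called. Slc39a5 had ratios of 1.56 (0.993 to 2.48) in goblet-like and 0.657 (0.4003 to 1.07) in stem-like cells for B + A 10 against B + A 0, and both intervals included 1. Slc39a4 in B + A 0 against AOS 0 had ratios of 0.786 (0.673 to 0.916) in mature and 0.792 (0.680 to 0.922) in ileal enterocyte-like cells and 1.25 (1.05 to 1.49) in early enterocyte-like cells. Slc39a5 in ileal enterocyte-like cells was at 147 for AOS 0, 110.0 for B + A 0 and 154 for B + A 10, with ratios of 0.748 (0.626 to 0.893) and then 1.40 (1.14 to 1.72), all inside 1.5-fold. The exporters gave 1 value past the fold, Slc30a1 in early enterocyte-like cells at 36.9, 27.6 and 22.0 UMIs per 1000000, a ratio of 0.596 (0.410 to 0.851) for B + A 10 against AOS 0 that held in 4 of 9 alternatives. Slc30a10 in duodenal enterocyte-like cells had ratios from 0.940 to 1.13, and each interval included 1. Goblet-like cells of AOS 0 came mostly from the cluster led by Klk1 and those of the other libraries mostly from the cluster led by Ido1. Slc39a4 was at 119, 87.7 and 97.1 in the Ido1 cluster and at 63.3, 55.4 and 55.7 in the Klk1 cluster.

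Of the other zinc and copper genes, 30 of 32 were in the table, and they gave 132 values with at least 100 UMIs. Of these, 7 were higher and 3 lower in B + A 0 against AOS 0, 3 higher and 1 lower in B + A 10 against B + A 0, and 12 higher and 2 lower in B + A 10 against AOS 0, to be read beside the shares of all values given above. Among metallothioneins the third gene, Mt3, had 398 UMIs in all and 1 in the 6 enterocyte classes.

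The other ZIP genes were spread differently over the classes (levels over all cells of a class). Slc39a14, which also carries manganese and iron, was at 91.8 UMIs per 1000000 in duodenal enterocyte-like cells and at 50.9 in the next class, and Slc39a9 was also highest there at 117. Slc39a8 was at 22.2 in goblet-like cells and at most 1.28 in the enterocyte classes. Slc39a7, a transporter of the endoplasmic reticulum, was highest in goblet-like (49.3) and early enterocyte-like (47.9) cells, and Slc39a11 in goblet-like cells (54.2). Slc39a10 was highest in stem-like cells at 11.7, Slc39a3 was at 2.26 to 12.7, and Slc39a1, a transporter of most cell types, at 23.4 to 78.8. With Slc39a4 and Slc39a5 included, 53 ZIP values gave 5 higher and 2 lower in B + A 0 against AOS 0, 2 and 1 in B + A 10 against B + A 0, and 3 and 1 in B + A 10 against AOS 0. Slc39a1 carried most of the higher ones, for example 48.0, 81.3 and 79.1 in mid enterocyte-like cells, a ratio of 1.69 (1.34 to 2.14) for B + A 0 and 1.65 (1.32 to 2.06) for B + A 10 against AOS 0. In Paneth-like cells Slc39a11 was lower, with ratios of 0.556 (0.395 to 0.782) and 0.483 (0.303 to 0.753).

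Among the ZnT genes, Slc30a2, which loads zinc into secretory vesicles, was at 41.2 UMIs per 1000000 in Paneth-like, 4.05 in goblet-like and 80.3 in mature enterocyte-like cells. Slc30a4 was highest in mature (128), proximal (124) and ileal (119.8) enterocyte-like cells, and Slc30a7 in goblet-like cells (32.9). Slc30a5, Slc30a6 and Slc30a9 were at 9.03 to 49.8, 5.98 to 19.8 and 6.77 to 37.9. The 42 ZnT values gave 0 higher in any comparison and 1, 1 and 2 lower. These included Slc30a4 in proximal enterocyte-like cells, at a ratio of 0.652 (0.516 to 0.820) for B + A 10 against AOS 0. The sensor Mtf1 was at 39.0 in mature enterocyte-like and 3.50 in Paneth-like cells, and 0 of its 5 values were called.

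The copper genes gave 60 values, of which 4 were higher and 0 lower in B + A 0 against AOS 0, 1 and 0 in B + A 10 against B + A 0, and 9 and 0 in B + A 10 against AOS 0. Of all values, 4.38%, 2.69% and 5.6% were higher in these comparisons. Sod1, the copper and zinc superoxide dismutase, made up 7 of these 9, for example 199, 310.1 and 351 UMIs per 1000000 in mature enterocyte-like cells, a ratio of 1.77 (1.54 to 2.03) for B + A 10 against AOS 0. Cox17, which carries copper to mitochondria, gave the other 2, at 1.79 (1.498 to 2.13) in stem-like and 1.54 (1.39 to 1.70) in ileal enterocyte-like cells. By class, the copper importer Slc31a1 was highest in mature enterocyte-like cells (292), the export pump Atp7b in duodenal enterocyte-like cells (28.9) and the chaperone Atox1 in mid enterocyte-like cells (524). Atp7a was at 3.39 to 37.7, Ccs at 13.5 to 85.5, Slc31a2 at 2.48 to 8.72 and Commd1 at 28.7 to 145.

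**Figure D5:**
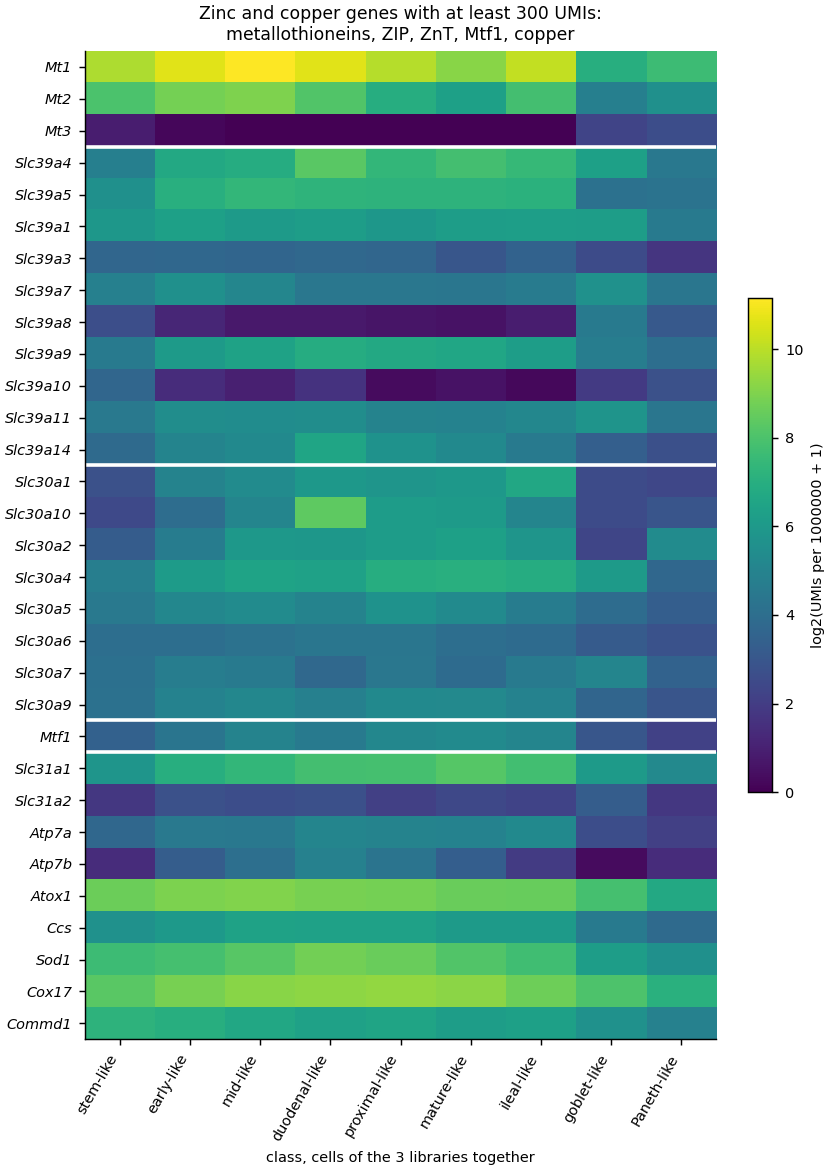
Level of the zinc and copper genes with at least 300 UMIs in the table, as log2(UMIs per 1000000 + 1), by class with the cells of the 3 libraries together. Mt1 in mid enterocyte-like cells is the brightest cell, Slc30a10 is brightest in duodenal enterocyte-like cells, and Mt3, Slc39a8 and Slc39a10 are dark across the enterocyte classes.

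Glucocorticoid responsive genes and immediate early and heat shock genes were read beside the metallothioneins, which respond to the same signals. Of all gene and class values, 4.38% were higher and 3.12% lower in B + A 0 against AOS 0, 2.69% and 2.34% in B + A 10 against B + A 0, and 5.6% and 4.25% in B + A 10 against AOS 0. Of 16 glucocorticoid list values, 0 were higher and 2 lower in B + A 0 against AOS 0, and 5 were higher and 0 lower in both B + A 10 against B + A 0 and B + A 10 against AOS 0. Sgk1 gave all 5 of the values against B + A 0, for example 70.2 and 166 UMIs per 1000000 in duodenal enterocyte-like cells of B + A 0 and B + A 10, a ratio of 2.37 (1.56 to 3.68), in the class where Mt1 and Mt2 were lower. Of 56 immediate early and heat shock values, 22 were higher and 3 lower in B + A 0 against AOS 0, 6 and 3 in B + A 10 against B + A 0, and 21 and 2 in B + A 10 against AOS 0. The part of these genes in the metallothionein values was not tested.

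The genes most like each member were found by the correlation of log2 levels (UMIs per 1000000 + 10) over 27 class and library profiles among 6526 genes. The profiles share libraries and clusters, so these values are a description. Mt1 was most like Fdx1 (r = 0.964), Cth (0.960), Lad1 (0.946), Prdx6 (0.944) and Dmbt1 (0.943). Mt2 was most like Tspo (0.928), Pycard (0.926), Mt1 (0.918), Ears2 (0.904) and Cluh (0.898). Slc39a4 was most like Slc22a18 (0.973), Lgals3 (0.971), Il13ra1 (0.966), Secisbp2l (0.966) and Prr13 (0.956), and Slc39a5 like Cisd3 (0.987), Ccl25 (0.976) and Rxra (0.976). Slc30a1 was most like Emp1 (0.967), Slc51a (0.964), Sult2b1 (0.962), Srxn1 (0.961) and Slc51b (0.960), of which Slc51a and Slc51b form the ileal bile acid exporter. Slc30a10 was most like Lipa (0.962), Slc46a1 (0.962), Ank (0.951), Alpi (0.945) and Vamp5 (0.934), of which Slc46a1 is the folate transporter of the duodenum. Some of these genes were on the marker lists that named the classes. They were Dmbt1, Pycard and Ccl25 (early enterocyte list), Slc51a and Slc51b (ileal list) and Slc46a1 (duodenal list). Between members, r ran from 0.245 for Mt2 and Slc39a4 to 0.918 for Mt1 and Mt2.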

How the data were processed

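The deposited table held 1 column per cell from 10x 3′ v2 libraries of mouse intestine, which the submitters' processing notes credit to Cell Ranger 2.2.0 and mm10. Values deposited by the authors were the natural log of 1 plus UMIs per 10000. Whole UMIs were recovered from them for 100% of 24333763 values above 0 (tolerance 0.01) and summed per class and library, per 1000000 UMIs. Totals were 35258551 UMIs for AOS 0, 26044381 for B + A 0 and 23003083 for B + A 10. The table as used here lists 0 mitochondrial genes.

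Cells were joined across libraries and clustered in Seurat 5.3.0 (R 4.3.3) with canonical correlation anchors, 20 dimensions, 2000 variable genes without the zinc and copper genes (9 were among them), 20 neighbours and a resolution of 0.8. Clusters were named from marker lists. The requirements that a marker or leading gene be detected in 5% of a cluster's cells and that at most 40% of a cluster be called doublets were chosen after seeing the clusters, and 3 clusters with 1372 cells stayed unnamed. Scrublet's own threshold called 15 doublets, so the highest 5% of scores in each library (633 cells) were taken as called and left out as an alternative. Python 3.11.15, numpy 2.4.6, scipy 1.17.1 and scanpy 1.11.5 were used. Levels have exact Poisson intervals, ratios and shares exact binomial intervals. For shares, each cell was thinned to 1000 UMIs, which left out 0 cells. The rule for calls was run on simulated Poisson counts, the same counting error that the intervals cover. Spread between cells or mice was not simulated, so that run says nothing about it.

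The members and gene lists were chosen with earlier results of these data known. The genes named were the 6 members, every metallothionein, ZIP, ZnT, Mtf1 and copper gene with at least 300 UMIs, the 5 genes most like each member (the first 3 for Slc39a5, since 1 result is not reported here) among those with at least 1000 UMIs, and the first 3 markers of each class. Sgk1, Fabp2, Ido1 and Klk1 were added after their values were seen. Alternatives were other clusterings, minimum counts, folds, totals and cell filters.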

Additional observations from a re-analysis of the deposited data

Results flagged for a closer look

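Ratios of the same comparison lay on opposite sides of 1 in 2 classes, each with an interval that left out 1 and at least 1 of them past 1.5-fold. The classes named are the 2 farthest apart for the gene, and the difference between classes was not tested, since each group was 1 library.

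For B + A 0 against AOS 0, Mt1 had a ratio of 1.60 in proximal enterocyte-like and 0.819 in Paneth-like cells, and Mt2 of 1.26 in stem-like and 0.553 in Paneth-like cells. Slc39a4 had a ratio of 1.75 in Paneth-like and 0.786 in mature enterocyte-like cells, and Slc39a5 of 2.63 in Paneth-like and 0.748 in ileal enterocyte-like cells. Here and below, each member named in Paneth-like cells had a share after thinning below that of T lymphocyte-like cells. Its Paneth-like values are read neither as expression nor as its absence.

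For B + A 10 against B + A 0, Mt1 had a ratio of 1.13 in stem-like and 0.532 in duodenal enterocyte-like cells, and Slc39a5 of 1.40 in ileal enterocyte-like and 0.664 in Paneth-like cells. For B + A 10 against AOS 0, Mt1 had a ratio of 1.30 in stem-like and 0.639 in Paneth-like cells, and Mt2 of 1.31 in stem-like and 0.295 in duodenal enterocyte-like cells.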

How the results depend on the processing

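With 2-fold in place of 1.5-fold, the members past the fold numbered 1 in B + A 0 against AOS 0 (5 as reported), 2 in B + A 10 against B + A 0 (6 as reported) and 3 in B + A 10 against AOS 0 (8 as reported). A minimum of 300 UMIs gave 3 for the first of these. Under the other settings the counts were 4 to 6, 4 to 7 and 6 to 10, and no ratio that was called reversed. The shares of all gene and class values given above belong to the reported setting. They cannot be set beside the counts of the other settings. Thinning the cells to 1000 UMIs moved 62 single values beyond their interval and left 101 within it, and often left fewer than 100 UMIs. Leaving the zinc and copper genes in the clustering moved 18 of 165, and leaving out called doublets moved 0 of 165. At a resolution of 0.4 and without joining the libraries 7 of 9 classes could be named, and at 1.5 there were 8. The proximal and mature enterocyte-like classes were missing at 0.4 and without joining, and the mature class at 1.5. Calls in these classes could not be checked there. The order of the Mt2 part held in the 4 enterocyte classes left at 0.4 and without joining, and in the 5 left at 1.5. No paired analysis was possible because each group was 1 library.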

Other observations

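Mt3, a metallothionein best known from the brain, was seen mainly in secretory progenitor-like and enteroendocrine-like cells and in the clusters that stayed unnamed. Of its 398 UMIs, 112 were in the unnamed clusters (9.22 UMIs per 1000000), 155 were in secretory progenitor-like cells (48.9 UMIs per 1000000) and 39 in enteroendocrine-like cells (46.4), against 47 in Paneth-like (5.30) and 31 in goblet-like cells (3.81). In enteroendocrine-like cells it was at 41.3 for AOS 0, 38.6 for B + A 0 and 63.9 for B + A 10. In mid, duodenal, proximal, mature and ileal enterocyte-like cells 0 UMIs were found. Mt3 was named by the rule for listed genes, but its classes were chosen after its values were seen.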
